A study of Mus musculus with 8 samples.

Results

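Apolipoproteins and the proteins that build and reshape lipoproteins were followed in AML12 cells, a mouse hepatocyte line, after Casp8 silencing. The set held 10 genes named by symbol in the deposited table, of 34945 named genes in all. It was chosen with earlier results of these data known. They were Apob, Apoe, Apoa1, Apoc1, Apoc4, Apoh, Mttp, Lipc, Lcat and Pltp. Cultures of the siCasp8 group, labelled as Casp8 knockdown, received siRNAs against Casp8, and cultures of the Scr group, labelled WT, received a scrambled siRNA. Both groups had 4 cultures, and both were exposed to 40 nM siRNA with a lipid transfection reagent for 48 hours, in medium with 10% fetal bovine serum. The cultures are called biological replicates in the series' design text. AML12 is a single established line, derived from a mouse with a human TGF-alpha transgene, so all 8 libraries share 1 origin. Poly-A RNA was sequenced, and the values are normalized gene-level estimates without a unit of their own.

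Liver lipoproteins carry triglyceride and cholesterol out of the hepatocyte. The protein of Apob forms the scaffold of very low density lipoprotein (VLDL), and the protein of Mttp loads lipid onto it in the endoplasmic reticulum. Smaller apolipoproteins, among them those of Apoe, Apoc1 and Apoc4, ride on the particle surface and govern its uptake and lipolysis, while the protein of Apoa1 is the scaffold of high density lipoprotein (HDL). Lcat, Pltp and Lipc encode secreted proteins that remodel particles in plasma.

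Casp8 itself was measured at 1480 ± 108 in siCasp8 cultures and 3972 ± 129 in Scr cultures (SD, n = 4 each), and the groups did not overlap. Sequencing depth, estimated from the value that 1 read takes, was 50.5 to 57.1 M reads in siCasp8 libraries and 30.7 to 51.8 M reads in Scr libraries (exact two-sided permutation p = 0.0571). Over all tested genes 19.4% were called higher and 20.8% lower by the test given below. Of 21 hepatocyte markers 15 reached a mean of 10 and were tested, with 9 called higher, Alb and Ttr among them, and Krt8 and Ambp lower. Their sum was 147350 to 150181 in siCasp8 libraries and 133156 to 141237 in Scr libraries. Its largest parts moved unlike the sum, with means of 42659 in siCasp8 and 44957 in Scr for Krt18 (not called). Krt8 had 34570 in siCasp8 and 42814 in Scr, while Trf, called higher, had 28508 in siCasp8 and 17025 in Scr. Ahsg, the gene of the plasma protein fetuin-A, was listed at 0 in every library. Of 12 macrophage markers 6 were listed at 0 throughout, including Adgre1, Clec4f and C1qa. Their summed value was 579 to 654 in siCasp8 libraries and 783 to 849 in Scr libraries, mostly from Csf1r, the only one called (lower). The summed markers of cholangiocytes lay between 139653 and 146797 in siCasp8 libraries and between 125699 and 133907 in Scr libraries, with 3 called higher and 4 lower, and Spp1 gave most of that sum. Those of stellate cells lay between 33561 and 34992 in siCasp8 libraries and between 35335 and 36777 in Scr libraries, mostly from Vim, with 1 called higher and 1 lower. Those of endothelium lay between 282 and 430 in siCasp8 libraries and between 292 and 588 in Scr libraries, with 0 of 3 tested called by limma (0 at an unadjusted p under 0.05), and Cdh5, Lyve1 and Erg were at 0. Their part in the results was not tested.

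Of the 5 called members other than Lipc, a pair fell and the other 3 rose. The stretches before their RefSeq promoter starts are shown, a choice made by those calls. They are RefSeq sequences of GRCm38.p6, given 5′ to 3′ on the gene's strand and cut short where a coding transcript starts further upstream. The cut left off 48 bases for Apob, 19 for Apoc4 and 3 for Pltp. The Mttp stretch ends at the RefSeq start but lies within the gene as GENCODE M21 draws it, in an exon of a longer non-coding transcript with a retained intron. The bases after the RefSeq start were found at the head of a GENCODE transcript for Apob, Apoe, Apoc4 and Pltp, but not for Mttp. The Apob stretch is chr12:7977427-7977628 (plus strand), the Mttp stretch chr3:138143419-138143668, the Apoe stretch chr7:19699189-19699438, the Apoc4 stretch chr7:19681480-19681710 and the Pltp stretch chr2:164857712-164857958 (all minus strand). Capitals mark matches, on either strand, to 1 of 7 short motifs.
Apob: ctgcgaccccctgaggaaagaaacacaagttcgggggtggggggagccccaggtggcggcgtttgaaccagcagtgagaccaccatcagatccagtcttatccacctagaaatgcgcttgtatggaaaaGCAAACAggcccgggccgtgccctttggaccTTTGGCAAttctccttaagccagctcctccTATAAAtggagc
Mttp: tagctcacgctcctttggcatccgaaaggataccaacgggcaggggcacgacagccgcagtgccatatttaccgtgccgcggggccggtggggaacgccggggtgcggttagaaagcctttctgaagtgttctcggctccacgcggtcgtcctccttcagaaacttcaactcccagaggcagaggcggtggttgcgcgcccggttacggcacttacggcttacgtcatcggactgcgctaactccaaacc
Apoe: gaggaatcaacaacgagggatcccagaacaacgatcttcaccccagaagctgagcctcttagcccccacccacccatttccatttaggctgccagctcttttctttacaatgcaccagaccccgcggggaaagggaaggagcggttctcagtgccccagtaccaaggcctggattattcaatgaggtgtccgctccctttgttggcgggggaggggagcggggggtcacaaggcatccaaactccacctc
Apoc4: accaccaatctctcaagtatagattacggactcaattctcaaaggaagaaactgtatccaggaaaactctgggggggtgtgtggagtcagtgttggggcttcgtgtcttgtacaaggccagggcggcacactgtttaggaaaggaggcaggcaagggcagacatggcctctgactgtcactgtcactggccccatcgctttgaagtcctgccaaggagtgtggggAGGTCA
Pltp: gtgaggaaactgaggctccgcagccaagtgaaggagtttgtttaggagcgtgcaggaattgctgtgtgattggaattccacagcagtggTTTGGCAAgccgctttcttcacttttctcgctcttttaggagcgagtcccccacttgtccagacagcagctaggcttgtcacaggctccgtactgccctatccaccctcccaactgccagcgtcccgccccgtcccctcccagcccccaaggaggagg

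The motifs were searched in the 250 bases before the RefSeq start of all 32851 promoters of the table, on both strands, and distances run from that start to the far end of a match. The nuclear receptor half-site AGGTCA was in 14.0% of them, the HNF1 half-site GTTAAT in 6.43%, the FOXA words TGTTTAC or TGTTTGC in 7.29%, the C/EBP word TTGCNNAA in 9.56%, the TATA box TATAAA in 12.4%, the SREBP word TCACNCCAC in 1.05% and the HNF4 word CAAAGTCCA in 0.384%. The Apob stretch held a FOXA word 121 bases, a C/EBP word 90 bases and a TATA box 60 bases before the RefSeq start. The Apoc4 stretch held 1 AGGTCA, 25 bases before the RefSeq start and thus at the end of the printed stretch, and the Pltp stretch 1 C/EBP word. None of the 7 words was in the Mttp and Apoe stretches, which says only that these letters were not in those windows. No 2 of the matches shown overlapped, and a match is a description of the letters. Of the members not shown, Apoa1 held FOXA words 88 and 75 bases before the start, and Apoh 1 such word at 71 bases and 1 AGGTCA at 215 bases. A second Lipc start had AGGTCA at 88 and 76 bases, while its outermost start and Lcat had none of the 7 words. Of the 2 other Apoe starts, 1 had overlapping TATAAA words at 100 and 96 bases on opposite strands, and 1 had GTTAAT at 172 bases. A promoter was found for 9 of the 10 members.

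Mttp, Apoe and Apoc4 each reached 1.88 to 2.05 times their Scr means in siCasp8 cultures, Apob and Pltp fell, and the low genes Apoa1, Apoh and Apoc1 gave no clear difference. Groups were compared with limma's moderated test on log2(value + 1), over all 14154 genes with a mean of at least 10 in the 8 libraries. A gene was called at a Benjamini-Hochberg adjusted p under 0.05, and these p-values measure the spread between these cultures of 1 line. Of the 10 members 9 were tested, of which 4 were called higher, 2 lower and 3 not at all. Lipc entered the test only through its siCasp8 values, and without it 3 of 8 were called higher and 2 lower. Apoh, with a Scr mean of 8.39, stayed among these 8 and was not called. Calls were common, at 40.2% of all tested genes, 19.4% higher and 20.8% lower. These were 2739 genes higher and 2950 lower, which became 4475 higher and 1665 lower after upper quartile rescaling of the libraries. Groups did not overlap for 6 of the 9 members, Lipc among them, and for 37.5% of all tested genes. The median log2 fold change of the 9 was 0.91. Without Lipc and Apoh, whose Scr means were under 10, that of the other 7 was 0.37, and over all tested genes it was 0.00.

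**Figure D1:**
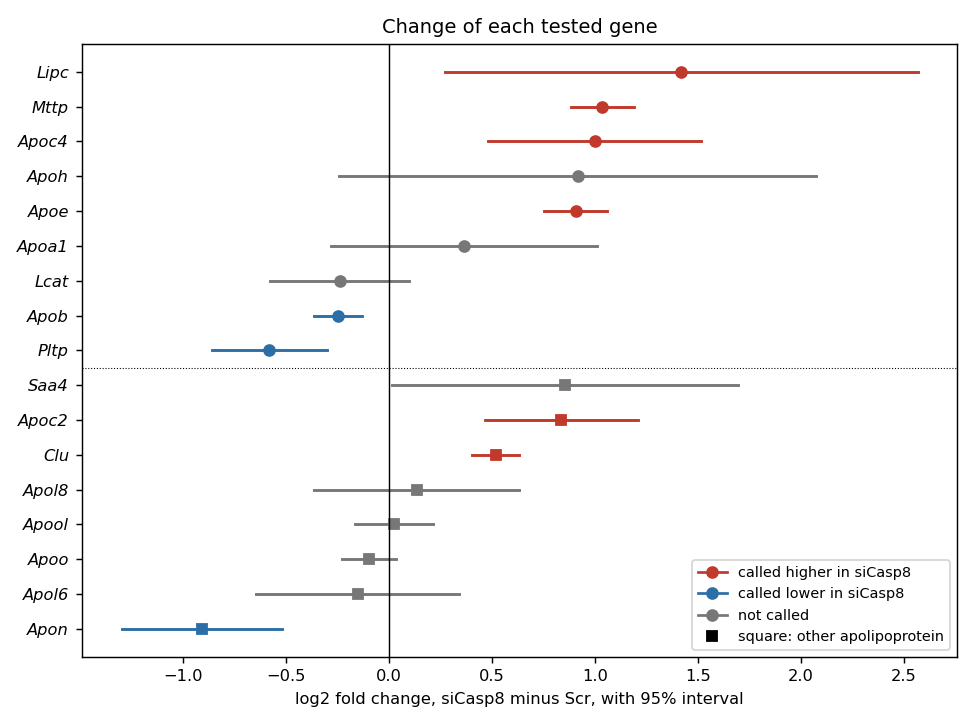
Log2 fold change of siCasp8 minus Scr with its 95% interval (horizontal axis) for the 9 tested members (circles, upper block) and the 8 other tested apolipoprotein genes (squares, lower block). Among the rises of members, Mttp and Apoe have the narrowest intervals, and the interval of Lipc runs from 0.27 to 2.57.

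The particle scaffold and its lipid loader moved in opposite directions. Apob, on chromosome 12 from 7977648 to 8016835 with 29 exons in its longest coding transcript, had 24314, 21305, 21035 and 21151 in siCasp8 libraries, against 25611, 24695, 25569 and 28309 in Scr libraries. Every siCasp8 library lay below every Scr library, with siCasp8 replicate 1 the closest to the Scr libraries. The means were 21951 ± 1579 in siCasp8 and 26046 ± 1567 in Scr (SD, n = 4 each), and Apob fell by 0.25 on the log2 scale (SE 0.0537, limma adjusted p = 0.00277). Upper quartile rescaling shifted the median over all tested genes by 0.10. It left Apob at -0.15, and the call was lost (limma adjusted p = 0.0849).

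Mttp, which encodes the large subunit of the microsomal triglyceride transfer protein, lies on chromosome 3 from 138089854 to 138144968 (GRCm38). It had 773, 852, 767 and 771 in siCasp8 libraries, against 353, 420, 387 and 382 in Scr libraries. The groups were far apart, with siCasp8 replicate 2 the highest library of all. The mean was 791 ± 40.7 in siCasp8 and 385 ± 27.5 in Scr (SD, n = 4 each), 2.05 times as high in siCasp8. On the log2 scale it rose by 1.04 (SE 0.0701, limma adjusted p = 3.49e-07). Trmt10a, a protein-coding gene annotated over Mttp on the other strand, had 858 in siCasp8 and 849 in Scr as group means (log2 fold change 0.02, limma adjusted p = 0.867). How strand was used in quantification is not given in the sources used here, so reads of overlapping genes may not be fully told apart. For each unit of Mttp, the Apob value was 25.01 to 31.4 units in siCasp8 libraries and 58.8 to 74.1 in Scr libraries. This ratio is formed within a library and does not depend on scaling between libraries, and its groups did not overlap.

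**Figure D2:**
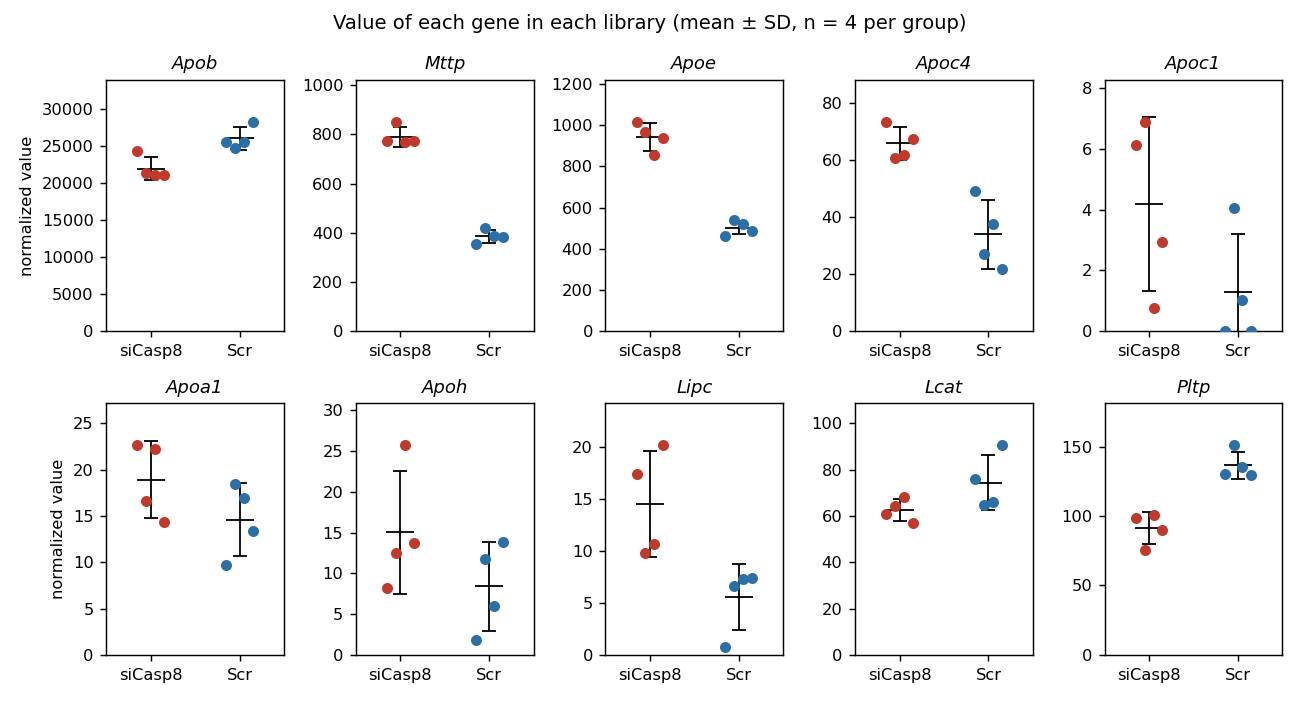
Normalized value of each of the 10 genes in each library (vertical axis, starting at 0, own scale per gene), with siCasp8 at the left and Scr at the right of each panel. Dots are libraries, bars are mean ± SD (n = 4 per group). Mttp, Apoe, Apoc4 and Lipc lie higher in all siCasp8 libraries, Apob and Pltp lie lower, and the groups of the other 4 genes overlap.

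Of the surface apolipoprotein genes Apoe, Apoc4 and Apoc1, Apoe had the highest values. Apoe, on chromosome 7 from 19696109 to 19699188 (minus strand), encodes the ligand by which remnant particles bind receptors. It had 1018, 967, 855 and 940 in siCasp8 libraries, against 465, 539, 521 and 489 in Scr libraries. The lowest siCasp8 library was well above the highest Scr library. The mean was 945 ± 68.2 in siCasp8 and 503 ± 33.0 in Scr (SD, n = 4 each), a rise of 0.91 on the log2 scale (SE 0.0708, limma adjusted p = 1.09e-06).

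Apoc4, an apolipoprotein gene of the same gene cluster, had 73.6, 60.8, 62.0 and 67.6 in siCasp8 libraries, against 49.3, 27.1, 37.8 and 21.8 in Scr libraries. Again no library of one group reached the other, and the Scr libraries were the more scattered. Its coefficient of variation was 8.90% in siCasp8 and 35.9% in Scr. It rose by 1.00 on the log2 scale (SE 0.237, limma adjusted p = 0.00502). The gene lies on chromosome 7 from 19678083 to 19681479, overlapped by the protein-coding model Gm44805 on the same strand, and Gm44805 was listed at 0 in all 8 libraries. Apoc1, which encodes a small surface protein that inhibits lipolysis and lipid transfer, was near the floor. Its values were 6.13, 6.89, 0.766 and 2.94 in siCasp8 libraries, against 0, 4.05, 1.04 and 0 in Scr libraries. The groups overlapped, the values correspond to at most 8.79 reads, and the mean of 2.73 over the 8 libraries was under the minimum of 10 for testing.

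Apoe, Apoc1 and Apoc4 lie side by side on chromosome 7 with Apoc2, the gene of the cofactor of lipoprotein lipase. Apoc2 had 66.4, 73.1, 64.9 and 73.2 in siCasp8 libraries, against 43.8, 30.2, 42.7 and 38.2 in Scr libraries. No library of one group reached the other. It rose by 0.84 on the log2 scale (SE 0.170, limma adjusted p = 0.00184), a call lost with estimated depth as a covariate (0.73, limma adjusted p = 0.0885). Within 100 kb of the Apoe start 12 protein-coding genes are annotated, of which 10 were tested. Over all tested genes 19.4% were called higher and 20.8% lower. The 3 called higher here were Apoe, Apoc4 and Apoc2, of which Apoe and Apoc4 are members. The neighbours on the other side, Tomm40 and Nectin2, which encode a mitochondrial import pore and an adhesion protein, fell by 0.30 and 0.35 (limma adjusted p = 0.000703 and 0.000189). The remaining 5 (Clasrp, Relb, Clptm1, Bcam and Cblc) were not called.

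**Figure D3:**
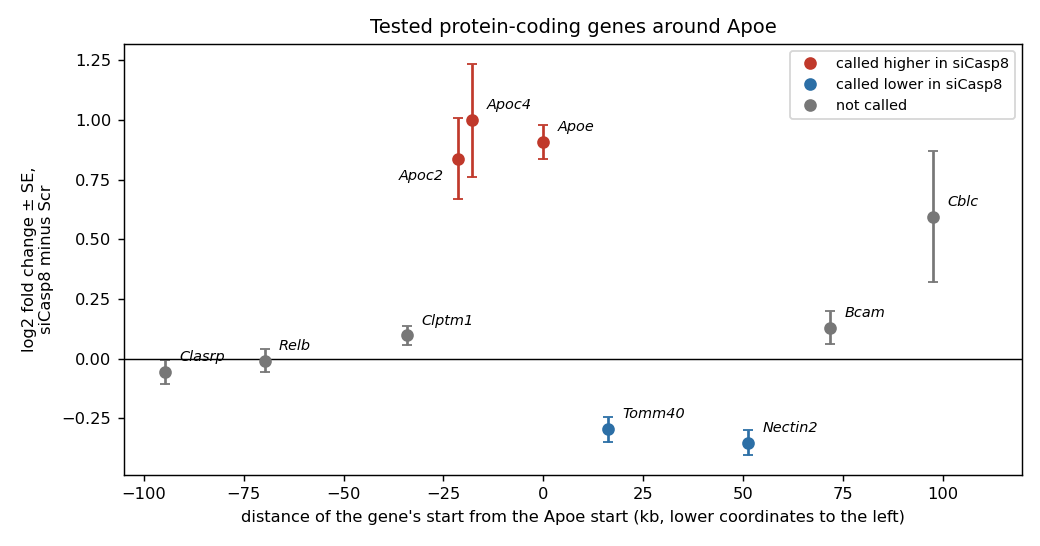
Log2 fold change of siCasp8 minus Scr (vertical axis, dots with SE bars) for the 10 tested protein-coding genes whose start lies within 100 kb of the Apoe start, against distance in kb. The 3 apolipoprotein genes lie between 0.84 and 1.00, and Tomm40 and Nectin2 lie at -0.30 and -0.35.

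Apoa1 and Apoh, which encode the HDL scaffold and a phospholipid-binding plasma glycoprotein, were low and did not differ beyond their spread. Apoa1 (chromosome 9 from 46228580 to 46230466) had 22.6, 16.6, 22.2 and 14.3 in siCasp8 libraries, against 9.66, 18.4, 17.0 and 13.4 in Scr libraries. The groups overlapped, and the log2 fold change was 0.37 (95% interval -0.28 to 1.01, limma adjusted p = 0.357). Apoh (chromosome 11 from 108343354 to 108414396) had 8.15, 12.5, 25.7 and 13.7 in siCasp8 libraries, against 1.86, 11.8, 6.05 and 13.9 in Scr libraries. These groups overlapped too, with a log2 fold change of 0.92 (95% interval -0.24 to 2.07, limma adjusted p = 0.194). Prkca, a kinase gene annotated over Apoh on the other strand, was far higher, with group means of 7060 in siCasp8 and 7636 in Scr. Reads in a library were at most 25.9 for Apoa1 and 30.0 for Apoh. A rise of 1 on the log2 scale lies inside both intervals, for Apoa1 just inside, and a fall of 1 lies outside both.

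The remodelling genes split. Pltp, which encodes the phospholipid transfer protein (chromosome 2 from 164839518 to 164857711), had 98.4, 75.9, 101 and 90.3 in siCasp8 libraries, against 130, 151, 135 and 129 in Scr libraries. All siCasp8 libraries were below all Scr libraries. The mean was 91.3 ± 11.2 in siCasp8 and 136 ± 10.0 in Scr (SD, n = 4 each), a fall of 0.58 on the log2 scale (SE 0.128, limma adjusted p = 0.00307). With estimated depth as a covariate the value was -0.44 and the call was lost (limma adjusted p = 0.159). Ctsa, a protein-coding gene that overlaps Pltp on the other strand, had group means of 9300 in siCasp8 and 8590 in Scr (log2 fold change 0.12, limma adjusted p = 0.0305).

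Lipc, the gene of hepatic lipase (chromosome 9 from 70798128 to 70952226), had 17.4, 9.85, 10.7 and 20.2 in siCasp8 libraries, against 0.807, 6.62, 7.31 and 7.41 in Scr libraries. The groups did not overlap, but Scr replicate 1 held less than 1 read (0.56) by the depth estimate. It rose by 1.42 on the log2 scale (SE 0.527, limma adjusted p = 0.0484). Without Scr replicate 1 it was 0.88 and the call was lost (limma adjusted p = 0.0844). The call was also lost without siCasp8 replicate 2 (limma adjusted p = 0.0595), with estimated depth as a covariate (0.65) and under 3 other alternatives. Lipc passed the minimum of 10 through the siCasp8 libraries, with a mean of 10.03 over all 8 and of 5.54 in Scr. Without siCasp8 replicate 1, 3 or 4 it fell below that minimum and was not tested. Lcat, whose product esterifies cholesterol on HDL (chromosome 8 from 105939551 to 105943382), had 60.8, 64.1, 68.3 and 57.0 in siCasp8 libraries, against 76.2, 64.9, 66.1 and 90.5 in Scr libraries. Its groups overlapped, with a log2 fold change of -0.24 (95% interval -0.57 to 0.10, limma adjusted p = 0.249).

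The order of levels per transcript length was nearly the same in both groups. Values were divided by the length of the longest coding transcript, which for Apob is 13934 bases. Per kb, Apob stood at 1575 ± 113 in siCasp8 and 1869 ± 112 in Scr (SD, n = 4 each), the highest of the 10 in both. Apoe came next at 671 ± 48.5 in siCasp8 and 358 ± 23.5 in Scr. Mttp followed at 200 ± 10.3 in siCasp8 and 97.3 ± 6.93 in Scr, then Apoc4 at 123 ± 10.9 in siCasp8 and 63.2 ± 22.7 in Scr. In Scr, Apoc4 and Pltp (61.3 ± 4.49 per kb) differed by less than their spread, as did Pltp and Lcat (55.5 ± 8.83). In siCasp8, Apoc4 stood above both Lcat (46.6 ± 3.59 per kb) and Pltp (41.0 ± 5.05). Apoa1, Apoh, Apoc1 and Lipc all lay under 20 per kb in group mean in both groups. Apoa1 stood at 18.3 ± 3.99 in siCasp8 and 14.1 ± 3.79 in Scr, above Lipc at 7.56 ± 2.63 in siCasp8 and 2.88 ± 1.65 in Scr (SD, n = 4 each). Apoh, at 12.6 ± 6.31 in siCasp8 and 7.05 ± 4.59 in Scr, differed from its neighbours Apoa1 and Apoc1 or Lipc by less than their summed SDs.

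**Figure D4:**
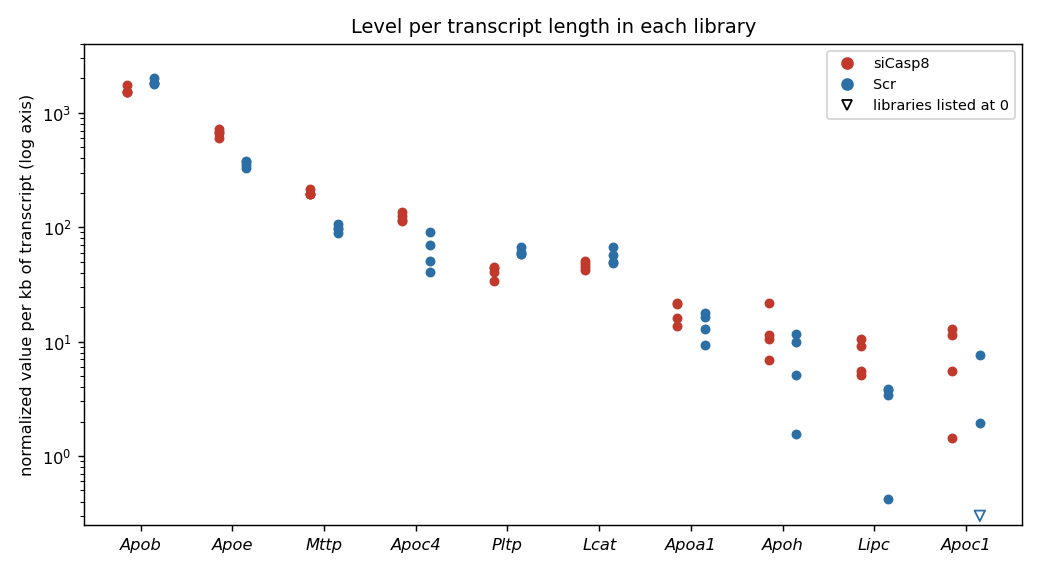
Normalized value per kb of the longest coding transcript (vertical log axis) for each gene in each library, siCasp8 to the left of Scr, ordered by the Scr mean. Apob and Apoe are at the top in both groups, and the open triangle marks the 2 Scr libraries in which Apoc1 was listed at 0.

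The shift among members was also measured within libraries, as the log2 ratio of each member to Apob, with 1 added to each value. The ratio of Mttp to Apob was -4.79 ± 0.136 in siCasp8 and -6.08 ± 0.152 in Scr (SD, n = 4 each), a difference of 1.28. Apoe gave -4.54 ± 0.0741 in siCasp8 and -5.69 ± 0.154 in Scr, a difference of 1.15, and Apoc4 differed by 1.25. For these and Lipc (1.67) the groups did not overlap, which gave the smallest p that the 70 arrangements allow (exact two-sided permutation p = 0.0286). Adjusted over the 9 ratios this became 0.0643, so no ratio passed 0.05. The Lipc difference rests on values near the floor and ranged from 0.91 to 1.87 under the alternatives. Lcat kept its ratio to Apob nearly level, with a difference of 0.01 (exact two-sided permutation p = 0.914), and Pltp differed by -0.33 (exact two-sided permutation p = 0.0571).

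Other apolipoprotein genes were mostly very low in these cells. Of 18 on the list, 8 were tested, with a median log2 fold change of 0.08. Of these 2 were called higher and 1 lower, beside 19.4% and 20.8% of all tested genes. The rest of the tested genes, Apol6, Apol8, Apool, Apoo and Saa4, were not called. Clu, the gene of clusterin (apolipoprotein J), was by far the most abundant at 335063 ± 3643 in siCasp8 and 234290 ± 17931 in Scr (SD, n = 4 each), a rise of 0.52 (limma adjusted p = 7.73e-06). Apoc2 was the other that rose. Apon, the gene of apolipoprotein N, fell to 29.4 ± 3.02 in siCasp8, against 56.2 ± 6.33 in Scr (-0.91, limma adjusted p = 0.00148). Apoa4 and Apoa5 were listed at 0 in all libraries, and Apoa2 and Apoc3 averaged under 1 in both groups.

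Genes of VLDL assembly, folding and transport went both ways. Of 32 genes 25 were tested, with a median of 0.00. Among the 25, 7 were called higher and 5 lower, beside 19.4% and 20.8% of all tested genes. P4hb, which encodes the partner subunit of the microsomal triglyceride transfer protein, was 33713 ± 164 in siCasp8 and 30626 ± 747 in Scr (SD, n = 4 each). It rose by 0.14 (limma adjusted p = 0.00297), against 1.04 for Mttp. Cideb, whose product enlarges VLDL particles, rose to 1755 ± 76.0 in siCasp8, against 1307 ± 81.9 in Scr (0.43, limma adjusted p = 5.42e-05). Mcfd2, which encodes an export adaptor known for coagulation factors rather than lipoproteins, rose by 0.27. Sort1, whose product sortilin binds the Apob protein, fell to 1147 ± 19.2 in siCasp8, against 1542 ± 54.3 in Scr (-0.43, limma adjusted p = 1.12e-05). The RNA-binding gene Rbm47, a cofactor of Apob mRNA editing, and the small GTPase gene Arf1 fell by 0.30 and 0.13, the Arf1 call being lost after upper quartile rescaling, under quantile normalization and with the depth covariate.

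Among 23 genes of HDL formation, lipases and plasma remodelling 19 were tested, with a median of 0.08. Of the 19, 6 were called higher and 4 lower, beside 19.4% and 20.8% of all tested genes. Abca1, the cholesterol exporter gene that starts HDL formation, rose to 3251 ± 332 in siCasp8, against 2569 ± 85.3 in Scr (0.33, limma adjusted p = 0.000982), and the paraoxonase gene Pon3 by 0.26. Bmp1, whose product trims the Apoa1 protein, fell by 0.25. The convertase genes Pcsk6 and Furin fell by 0.47 and 0.17. With estimated depth as a covariate Pon3, Pcsk6 and Furin were no longer called, and Furin lost its call under both other scalings too.

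Of 24 receptor genes and their regulators 22 were tested, with a median of -0.04. Calls were 3 higher and 8 lower, beside 19.4% and 20.8% of all tested genes. Scarb1, the HDL receptor gene, fell to 1222 ± 26.1 in siCasp8, against 1689 ± 108 in Scr (-0.47, limma adjusted p = 1.76e-05), and the endocytic adaptor gene Dab2 fell by 0.54. The receptor chaperone genes Lrpap1 and Mesd and the receptor gene Vldlr rose by 0.28, 0.17 and 0.15. None of these 3 was called once estimated depth entered as a covariate. Mesd also lost its call without siCasp8 replicate 2 or 4, and Vldlr without siCasp8 replicate 1 or 3 or Scr replicate 1.

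Of 30 transcriptional regulators known to act on apolipoprotein genes 29 were tested, with a median of 0.19. Calls were 14 higher and 5 lower, beside 19.4% and 20.8% of all tested genes. Of the forkhead genes, Foxa3 and Foxa1 moved apart, and Foxa2 was not called (0.01, limma adjusted p = 0.794). Foxa3 rose to 635 ± 24.8 in siCasp8, against 387 ± 10.4 in Scr (0.71, limma adjusted p = 2.38e-06), and Foxa1 fell to 1119 ± 85.9 in siCasp8, against 1726 ± 35.0 in Scr (-0.63, limma adjusted p = 3.66e-06). Foxo1, known to raise Mttp transcription, rose by 0.37, and Pparg, the gene of a fat-regulating nuclear receptor, by 0.77. Nr2f6 and Ppargc1a, which encode a nuclear receptor and a coactivator, fell by 0.27 and 0.27. Neither was called once estimated depth entered, and the call of Ppargc1a was also lost after upper quartile rescaling. Creb3l3, a liver transcription factor gene singled out after its values were seen, had 59.2 ± 7.60 in siCasp8 and 17.5 ± 7.71 in Scr (SD, n = 4 each) and rose by 1.81, the most on the list. Bulk values cannot tell apart fewer cells that express a gene and less of its RNA per cell.

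**Figure D5:**
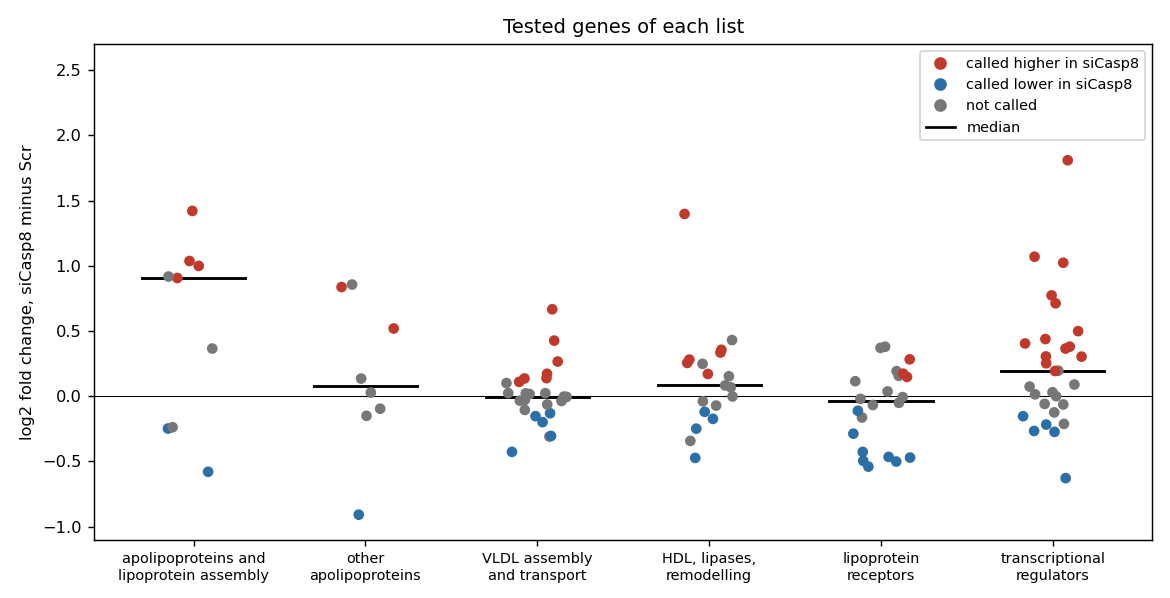
Log2 fold change of siCasp8 minus Scr (vertical axis) for each tested gene of the members and of 5 lists of other genes of the pathway, with black lines at the medians and dots coloured by call. The medians of the 5 lists lie between -0.04 and 0.19.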

How the data were processed

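Poly-A RNA of 8 AML12 cultures was sequenced with Illumina TruSeq chemistry, per the labels' protocols, and libraries were grouped by their titles. The authors used bcl2fastq 2.19, kallisto 0.44.0, sleuth and DESeq2, per the submitters' processing notes, which list them and the builds GRCh38 and GRCm38 without role or order. Each gene symbol has 1 normalized signal value per library in the deposited table, which by its name the authors made from kallisto estimates with DESeq2. Annotation and transcript summing are not given in the sources used here. A line without a symbol, 0.0481% to 0.0631% of each total, was left out.

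Totals carry no depth. The commonest low value was taken as 1 read, and among values worth up to 20.5 reads 63.0% to 75.0% were whole multiples of it (tolerance 0.1 read), so no count model was used. The limma 3.58.1 (R 4.3.3) moderated test with trended prior variance compared siCasp8 minus Scr on log2(value + 1), two-sided, for 14154 genes with a mean of at least 10. Benjamini-Hochberg adjustment ran over these genes, with calls at adjusted p under 0.05. Adding 1 shrinks log2 differences between low values, but a library near the floor can still enlarge the change of a low gene. Lipc rose by 1.42, and by 0.88 without Scr replicate 1. Ratios to Apob and depth used exact permutation tests. The limma script was tested on simulated data.

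The members and lists were chosen with earlier results of these data known. Besides the members and Casp8, the text names in each of 5 pathway lists the 3 higher and the 3 lower calls of smallest adjusted p, except items that are not reported here. Cell type markers are given by list. Positions and lengths come from GENCODE M21 (GRCm38), matched by symbol for all 10 members. Alternatives were a pseudocount of 10, no filter, upper quartile rescaling, quantile normalization, estimated depth as a covariate, a replicate block and leaving out each library.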

Additional observations from a re-analysis of the deposited data

Results flagged for a closer look

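Libraries were compared with the others of their group for 38 named genes and for estimated depth, 78 groups in all. In 6 groups 1 library stood apart by a gap that passes Dixon's 95% criterion, where chance flags about 1 group in 20. Apob was 24314 in siCasp8 replicate 1, against 21035 to 21305 in the other siCasp8 libraries. Mttp was 852 in siCasp8 replicate 2, against 767 to 773 in the others. Lipc was 0.807 in Scr replicate 1, against 6.62 to 7.41 in the other Scr libraries. Bmp1 was 7713 in siCasp8 replicate 4, against 7016 to 7041. Foxa1 was 992 in siCasp8 replicate 1, against 1146 to 1174. Mesd was 2642 in Scr replicate 1, against 3030 to 3090.

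The line of the table without a gene symbol, used in no comparison, averaged 26351 ± 1581 in siCasp8 and 23276 ± 1058 in Scr (SD, n = 4 each), with no overlap between the groups.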

How the results depend on the processing

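Apoe, Apoc4 and Mttp kept their direction and call under all 14 alternatives, with log2 fold changes of 0.87 to 1.01, 0.81 to 1.48 and 0.99 to 1.14. Apob ranged from -0.34 to -0.15 and Pltp from -0.66 to -0.44, each losing its call once. Lipc lost its call in 6 of 11 (0.63 to 1.62) and could not be tested in the other 3. Apoa1 and Lcat were not called in any, nor was Apoh in the 13 where it was tested (it fell below the minimum without siCasp8 replicate 3). Over all genes, upper quartile rescaling gave 4475 higher and 1665 lower, against 2739 and 2950, and the depth covariate gave 1289 higher and 1475 lower. Among members, 1 was called lower under upper quartile rescaling (Pltp) and 1 with the depth covariate (Apob). The cause was not tested, and depth partly follows the groups. Leaving out 1 library gave 2262 to 2765 genes higher and 2537 to 2978 lower, with 3 to 4 members higher and 2 lower.

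The ratio of Lcat to Apob changed sign under 4 of the 8 leave-outs, with a range of -0.0525 to 0.0723. No other ratio changed sign, and none passed 0.05 under any of 10 alternatives (with the block, 0.125 is the smallest exact p that signs allow). Same-numbered libraries correlated in their deviations by 0.0442 to 0.169, each best with its own number, a hint from the data, not the design. With a replicate block, Lipc was the only member whose call changed (limma adjusted p = 0.0569), leaving 3 members higher and 2 lower. Depth limits Apoc1, Apoa1, Apoh and Lipc, all at 30.0 reads or fewer per library. Apoc4 was also thinly covered in Scr libraries, at 18.4 to 34.2 reads, against 72.2 to 87.5 in siCasp8 libraries.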
